A study of Mus musculus with 8 samples.

Results

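The genes described are the collagen chains of a mouse spleen stromal cell line together with the enzymes and helpers that fold, hydroxylate, trim and cross-link them. The list held 36 genes, 21 chains and 15 enzymes and helpers. A gene was taken through the probe of the array named for it, and the probe with the highest mean signal was used where several were detected (detection p below 0.05 on at least 4 of 8 arrays). A named probe was found for 32 of the 36 genes, and 31 passed the detection filter, 17 chains and 14 enzymes and helpers, among 9971 features tested in all, 9174 of them with a gene symbol. *Col6a3*, *Col8a1*, *Col12a1* and the procollagen N-proteinase *Adamts2* had no probe named for them here and were not analysed. *Col8a2*, a chain of the network-forming collagen VIII, was detected on 1 of 8 arrays and was not tested.

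The mSSC-YFP line, 1 stromal line immortalised from mouse spleen of embryonic day 18.5 and marked with a yellow fluorescent protein, was used at passage 2 to 6, and the labels give C57BL6/N as the strain of every sample. In 4 leukemic arrays the stroma had been cultured with leukemic B cells from the spleen of adult, highly leukemic Eμ-TCL1 mice, which carry a TCL1 transgene under an immunoglobulin enhancer active in B cells and develop a disease like chronic lymphocytic leukemia (CLL). In 4 control arrays it had been cultured with splenic B cells of age-matched adult mice. Both cultures lasted 40 to 48 h at 20 B cells per stromal cell according to the labels. RNA of the stroma, sorted away from the B cells, was hybridised to Illumina bead arrays. Whether a replicate stands for its own culture or its own donor mouse is not stated, so the p-values cover the spread among these 8 arrays, which may be technical.

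Collagens are built from 3 chains wound into a helix. Within the endoplasmic reticulum the chains are hydroxylated on proline, which stabilises the helix, and on lysine, which prepares cross-links, and the chaperone Hsp47 holds the folded molecule. After secretion the propeptides are cut off, and lysyl oxidases oxidise lysine side chains so that neighbouring molecules become covalently linked. In the spleen, fibroblastic stromal cells lay down a reticular meshwork of such fibers along which lymphocytes move.

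Levels are log2 signals after background correction and normalization, and differences are leukemic minus control on that log2 scale with their standard error (SE, n = 4 per group), so that a difference of 1 is a doubling. Between 13504 and 13938 probes were detected per array. The line carried the markers of fibroblasts that its label implies: 13 of 14 marker genes were detected on every array, with a mean level between 11.46 and 11.66 on the leukemic arrays and between 11.53 and 11.60 on the control arrays, and only *Tlx1* was not detected. Leukemic replicate 4 stood apart. Across features it correlated with the other arrays at r = 0.955 to 0.970, against 0.984 to 0.995 among the other 7. B cell markers were also highest there. Their mean level (6 genes tested of 10 on the array) was 9.90 on leukemic replicate 4 and 7.10 to 7.63 on the other leukemic arrays, against 6.24 to 6.62 on the control arrays, and their summed linear signal was 1037 to 6810 on the leukemic arrays and 654.2 to 829.3 on the control arrays. *Ms4a1* and *Pax5*, which define B cells, were not detected on any array. *Blk* was detected on leukemic replicates 2, 3 and 4 and *Cd22* on leukemic replicates 3 and 4, and neither on a control array. The rank product called 5 of the 6 tested B cell markers as higher, 1 of 4 further leukocyte markers (*Laptm5*), 2 of 3 myeloid markers (*Lyz1*, *Lyz2*) and 0 of 3 endothelial markers, while *Ptprc*, *Lcp1*, *Adgre1*, *Itgam*, *Cdh5* and *Emcn* were not detected on any array. The summed signal was 3348 to 7344 on the leukemic and 3853 to 4170 on the control arrays for the leukocyte markers, 1091 to 2949 on the leukemic and 835.1 to 1150 on the control arrays for the myeloid markers, and 139.6 to 196.7 on the leukemic and 155.4 to 187.4 on the control arrays for the endothelial markers. The part of RNA of these other cells in the collagen differences was not tested, and the difference of each of the 31 genes is given with and without leukemic replicate 4.

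The comparison asks whether collagen transcripts differed in amount between stroma kept with leukemic B cells and stroma kept with control B cells. No collagen gene passed either test as run here. The rank product, the method the study used, was an own implementation on signals normalized in another way. By it 0 of 31 collagen genes passed as higher, where 0.281% of all features did, and 0 passed as lower, where 0.0201% did. The lowest q of a collagen gene was 0.211 for higher and 0.264 for lower. *Col15a1* passed as lower only when the authors' values, no filter and every probe were combined, a setting chosen after seeing the data. By limma 0 of 31 passed, as did 0% of all features, with a lowest adjusted p of 0.639. Before adjustment 756 features had a limma p below 0.05. At an unadjusted limma p below 0.05, 1 collagen gene was higher, *P4ha3*, where 3.9% of all features were, and 0 were lower, where 3.68% of all features were. At an unadjusted rank product p below 0.05, *Col14a1*, *Col6a2* and *P4ha3* were higher (3 genes, 7.08% of all features) and *Col15a1*, *Col18a1*, *Col5a3* and *Loxl3* lower (4 genes, 6.98% of all features). The 95% intervals of the differences reached 0.218 to either side for the most precisely measured gene, 0.45 in the median and 1.72 for the least precise, and a difference of a single gene smaller than such a width could not be told from 0.

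**Figure D1:**
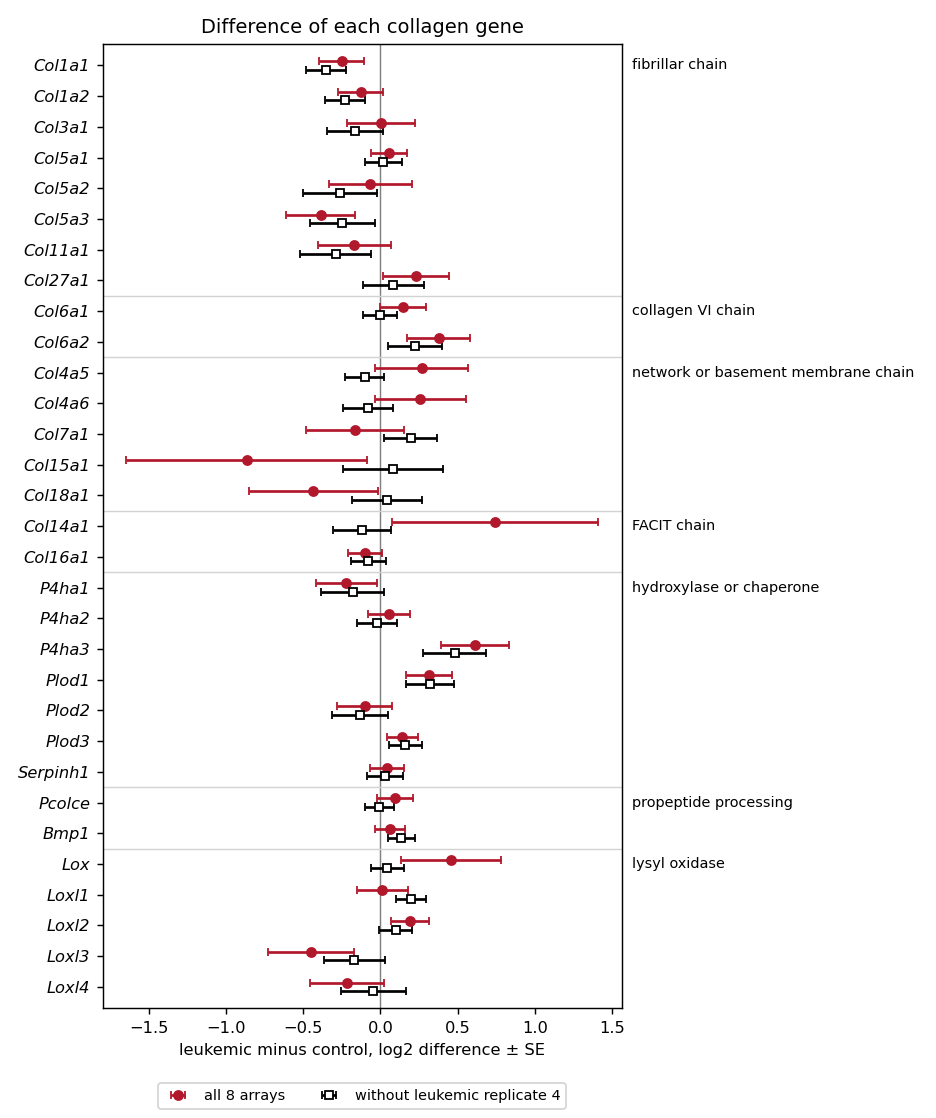
The difference of each of the 31 collagen genes, leukemic minus control, on the log2 scale, with bars of 1 SE. Red points use all 8 arrays and open squares leave out leukemic replicate 4, and the longest bars, those of *Col15a1*, *Col14a1* and *Col18a1*, shrink when it is left out.

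Of the fibrillar chains, which form the rope-like fibers, 3 of 8 had a higher and 5 a lower mean in leukemic cultures, with a median difference of -0.10 (0.0028 over all features). *Col1a1*, the major chain of type I collagen, had levels of 13.64, 13.43, 13.20 and 13.83 on the leukemic arrays and 13.94, 13.98, 13.51 and 13.66 on the control arrays. Leukemic replicate 3 was the lowest of all 8 arrays and control replicates 1 and 2 were the highest, and the groups overlapped between. The difference was -0.25 ± 0.15 (limma adjusted p = 0.656), and without leukemic replicate 4 it was -0.35 ± 0.13. That value had an unadjusted p of 0.0191 by limma, and *Col1a1* was the 1 collagen gene below 0.05 on the lower side in that comparison, where 3.83% of all features were. Its partner in type I collagen, *Col1a2*, differed by -0.13 ± 0.14 (-0.23 without leukemic replicate 4).

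*Col3a1*, the chain of type III collagen of reticular fibers, had 10.92, 11.20, 10.64 and 11.59 on the leukemic arrays and 11.39, 11.05, 10.59 and 11.31 on the control arrays. Leukemic replicate 4 was the highest of all 8 arrays, the others overlapped between the groups, and replicate 3 was low in both. The means differed by 0.0029 ± 0.22, with a 95% interval of -0.48 to 0.48, and by -0.17 without leukemic replicate 4. A second detected probe of the gene gave -0.011. *Col5a3*, a chain of type V collagen, which joins type I fibers, had 5.51, 5.94, 5.54 and 5.10 on the leukemic arrays and 5.82, 6.43, 5.76 and 5.63 on the control arrays. Here 3 of 4 leukemic arrays lay below all control arrays, and leukemic replicate 2 lay above 3 of them. The levels were low, and that of leukemic replicate 4 was close to the detection limit. The difference was -0.39 ± 0.22 (limma adjusted p = 0.648), -0.25 without leukemic replicate 4 and -0.0584 with the authors' normalized values. The other type V chains differed by 0.06 ± 0.12 (*Col5a1*) and -0.06 ± 0.27 (*Col5a2*), and by 0.02 and -0.26 without leukemic replicate 4. *Col11a1*, of the related type XI collagen, differed by -0.17 ± 0.24 and was detected on 7 of 8 arrays, and *Col27a1* differed by 0.23 ± 0.21 with detection on 4 of 8 arrays. Without leukemic replicate 4 these differences were -0.29 and 0.08. Without leukemic replicate 4 the median of the fibrillar chains was -0.24, with 2 of 8 higher.

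Both tested chains of collagen VI, which forms beaded filaments around cells, had a higher mean in leukemic cultures, and *Col6a3* had no named probe. *Col6a2* had 11.11, 10.92, 10.29 and 11.39 on the leukemic arrays and 10.65, 10.69, 10.29 and 10.58 on the control arrays. Of the leukemic arrays 3 lay above all control arrays, and replicate 3 was low in both groups. The difference was 0.38 ± 0.20 (95% interval -0.07 to 0.83, limma adjusted p = 0.647) and 0.22 without leukemic replicate 4. *Col6a1* had 13.90, 13.84, 13.64 and 14.38 on the leukemic arrays and 13.84, 14.04, 13.63 and 13.67 on the control arrays. Only leukemic replicate 4 lay above the control range. The difference of 0.15 ± 0.15 became -0.0011 without it. The other detected probes of *Col6a1* gave 0.28 and 0.02. The pair are neighbours on chromosome 10.

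The chains of network-forming, anchoring and basement membrane collagens had wide departures on leukemic replicate 4. *Col15a1*, the chain of a collagen of the basement membrane zone whose tail gives an endostatin-like fragment, had 10.53, 11.29, 10.72 and 7.06 on the leukemic arrays and 10.72, 11.84, 10.43 and 10.08 on the control arrays. The first 3 leukemic arrays lay within the control range, and the fourth departed from the mean of the other 7 arrays by -3.74. The difference was -0.87 ± 0.78 (limma adjusted p = 0.735), the furthest from 0 of all 31 genes, and 0.08 ± 0.32 without leukemic replicate 4. *Col18a1*, its close relative and the source of endostatin, had 11.70, 11.58, 10.73 and 9.44 on the leukemic arrays and 11.72, 11.32, 10.85 and 11.28 on the control arrays. Again the fourth leukemic array was the lowest of all. The difference was -0.43 ± 0.42 and 0.04 without that array, and on a second detected probe of the gene leukemic replicate 4 was also the lowest, at 5.94 against 7.01 to 8.02 on the other 7 arrays. The bases just upstream of the annotated start of *Col15a1* are shown because it had the widest difference of all the genes. They are the 100 bases before the start on the plus strand, chr4:47207912-47208011 (RefSeq, GRCm38.p6), and hold neither CCAAT nor the GC box letters GGGCGG on either strand, so no letter is in capitals.
Col15a1: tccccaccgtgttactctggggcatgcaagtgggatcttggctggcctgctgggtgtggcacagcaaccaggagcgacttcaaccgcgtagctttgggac

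*Col4a6*, a type IV chain of specialised basement membranes, had 6.83, 7.02, 7.28 and 8.41 on the leukemic arrays and 7.24, 7.12, 7.23 and 6.91 on the control arrays. The fourth leukemic array was the highest and the first the lowest. The difference was 0.26 ± 0.30 (limma adjusted p = 0.788), and -0.08 without leukemic replicate 4. On a second detected probe of the gene leukemic replicate 4 was again the highest, at 8.12 against 6.35 to 6.94 on the other 7 arrays. *Col4a5*, the chain that assembles with it and the one mutated in Alport syndrome, named here after its values were seen, had 9.33, 9.68, 9.42 and 10.95 on the leukemic arrays and 9.69, 9.41, 9.69 and 9.53 on the control arrays. It showed the same order at the top: leukemic replicate 4 was 1.41 above the mean of the other 7 arrays for *Col4a5* and 1.31 for *Col4a6*. The difference of *Col4a5* was 0.27 ± 0.30, and -0.10 without that array. The genes stand head to head on chromosome X with 1342 bases between their annotated starts. The sequence at each end of that shared stretch, within it, is shown for this reason. The 200 bases before each start are chrX:141475219-141475418 on the plus strand for *Col4a5* and chrX:141474077-141474276 on the minus strand for *Col4a6* (RefSeq, GRCm38.p6). Capitals mark CCAAT and the GC box letters GGGCGG or, on the other strand, CCGCCC.
Col4a5: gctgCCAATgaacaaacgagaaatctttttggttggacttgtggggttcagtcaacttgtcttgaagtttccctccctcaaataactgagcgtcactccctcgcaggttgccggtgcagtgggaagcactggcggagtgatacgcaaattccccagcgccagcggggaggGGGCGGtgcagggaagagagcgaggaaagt
Col4a6: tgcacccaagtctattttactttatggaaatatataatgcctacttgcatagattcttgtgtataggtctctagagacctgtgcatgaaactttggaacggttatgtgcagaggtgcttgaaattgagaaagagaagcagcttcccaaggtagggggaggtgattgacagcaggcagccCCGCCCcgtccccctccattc

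A GC box began 30 bases before the start of *Col4a5* and 21 before that of *Col4a6*, and CCAAT began 196 before that of *Col4a5*. *Col7a1*, the anchoring fibril collagen of the skin, was also singled out after its values were seen: it had 9.10, 9.48, 9.71 and 7.99 on the leukemic arrays and 9.12, 9.12, 9.64 and 9.06 on the control arrays. The fourth leukemic array was the lowest on its brighter probe and on a second one (5.07 against 5.54 to 6.31 on the other 7 arrays), but the probes differed in the sign of the difference, which was -0.16 ± 0.32 on the brighter and 0.14 on the second (0.19 and 0.40 without leukemic replicate 4). Over these 5 chains the median distance of leukemic replicate 4 from the mean of the other 7 arrays was 1.41 in size, against 0.28 over all features, 3 of them lying below and 2 above. *Col8a2*, which was below the detection filter, had 6.22 on leukemic replicate 4, the 1 array that detected it, and 4.82 to 4.92 on the control arrays.

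**Figure D2:**
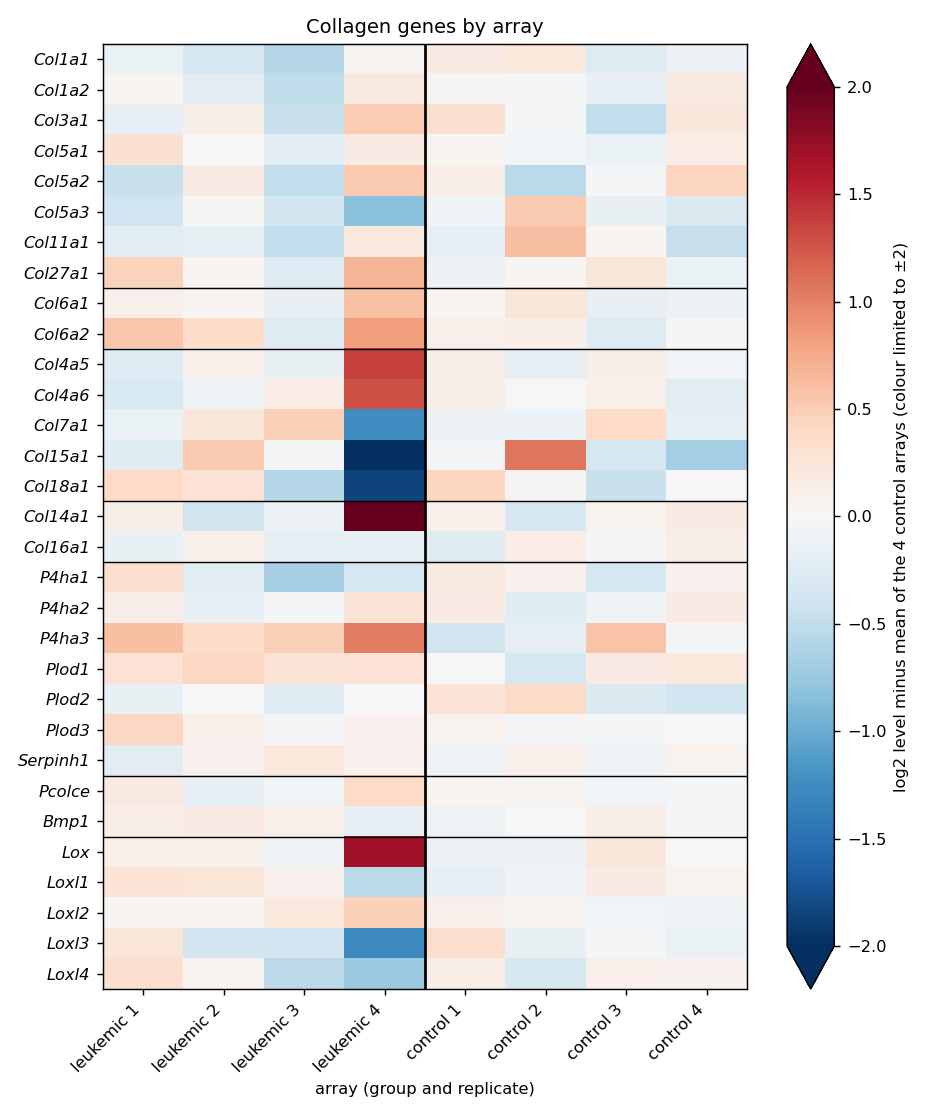
Level of each of the 31 collagen genes on each array, as the log2 level minus the mean of the 4 control arrays, with the colour limited to 2 on either side. The strongest colours are in the column of leukemic replicate 4, red for *Col14a1*, *Lox*, *Col4a5* and *Col4a6* and blue for *Col15a1*, *Col18a1*, *Col7a1* and *Loxl3*.

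Of the chains that decorate fibers or interrupt the helix (the FACIT group), *Col14a1*, which binds to type I fibers, had 5.35, 4.86, 5.12 and 8.56 on the leukemic arrays and 5.33, 4.90, 5.30 and 5.40 on the control arrays. It was near the lower end of detection on 7 arrays, with 1 array of each group not detecting it, and high on leukemic replicate 4 alone. The difference of 0.74 ± 0.67 (limma adjusted p = 0.735) became -0.12 ± 0.19 without that array and was 0.25 with the authors' normalized values. *Col16a1* had 11.94, 12.19, 11.90 and 11.92 on the leukemic arrays and 11.85, 12.24, 12.06 and 12.20 on the control arrays, a difference of -0.10 ± 0.11 with a 95% interval of -0.34 to 0.14. Leukemic replicate 4 was not apart for *Col16a1*, and the difference without it was -0.08.

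The prolyl 4-hydroxylase subunit *P4ha3*, one of 3 catalytic alpha subunits of the enzyme that hydroxylates proline in the chains, had the lowest unadjusted limma p of all 31 genes. Its levels were 8.12, 7.87, 7.99 and 8.53 on the leukemic arrays and 7.13, 7.34, 8.09 and 7.48 on the control arrays. All 4 leukemic arrays lay above 3 of the control arrays, and control replicate 3 lay within the leukemic range. The leukemic mean was 8.13 ± 0.29 and the control mean 7.51 ± 0.41 (SD, n = 4 each). The difference was 0.61 ± 0.22, a fold of 1.53, with a 95% interval of 0.13 to 1.10, an unadjusted p of 0.0180 and an adjusted p of 0.639 by limma, and a rank product q of 0.211. With the authors' normalized values it was 0.27. Without leukemic replicate 4 it was 0.48 ± 0.20, and *P4ha3* was again the 1 collagen gene that was higher at an unadjusted limma p below 0.05, where 4.62% of all features were. The other alpha subunits differed by -0.22 ± 0.20 (*P4ha1*) and 0.05 ± 0.14 (*P4ha2*), and by -0.18 and -0.02 without leukemic replicate 4.

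*Plod1*, a lysyl hydroxylase acting on the helical part of collagen, was the 1 collagen gene whose groups did not overlap with leukemic arrays higher, where 2.21% of all features were so, and none was so with leukemic arrays lower, where 2.31% of all features were. It had 8.38, 8.50, 8.37 and 8.39 on the leukemic arrays and 8.08, 7.74, 8.26 and 8.30 on the control arrays. The gap between the lowest leukemic and the highest control array was small beside the spread of the control arrays (SD 0.257). The difference was 0.31 ± 0.15, a fold of 1.24 (unadjusted p = 0.0581 and adjusted p = 0.639 by limma), 0.32 without leukemic replicate 4 and 0.16 with the authors' normalized values. *Plod3*, which also adds glucose to collagen, had 12.49, 12.18, 12.05 and 12.16 on the leukemic arrays and 12.14, 12.03, 12.04 and 12.09 on the control arrays. The first leukemic array was the highest and the third lay among the controls, with a difference of 0.14 ± 0.10 (0.16 without leukemic replicate 4). *Plod2*, the hydroxylase of the telopeptides, differed by -0.10 ± 0.18 (-0.13 without leukemic replicate 4). *Serpinh1*, which encodes Hsp47, differed by 0.04 ± 0.11, with a 95% interval of -0.20 to 0.29, and by 0.03 without leukemic replicate 4. In this group leukemic replicate 4 departed by 0.15 in the median. It was 0.81 above the mean of the other 7 arrays for *P4ha3*, and above all of them for *P4ha3* and *P4ha2*.

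The promoters of *P4ha3* and *Plod1* are given because these were the enzymes nearest to a separation of the groups. Shown are the 100 bases before each annotated start, chr7:100285420-100285519 on the plus strand for *P4ha3* and chr4:147936777-147936876 on the minus strand for *Plod1* (RefSeq, GRCm38.p6), with GGGCGG and CCGCCC in capitals.
P4ha3: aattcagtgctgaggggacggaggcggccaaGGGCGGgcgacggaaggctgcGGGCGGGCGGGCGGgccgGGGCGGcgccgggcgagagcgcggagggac
Plod1: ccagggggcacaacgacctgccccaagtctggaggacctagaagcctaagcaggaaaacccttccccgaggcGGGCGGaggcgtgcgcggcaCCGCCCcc

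The letters matched 5 times in the window of *P4ha3*, 3 of them overlapping in 1 run, and 2 times in that of *Plod1*. Promoter windows were found for 22 of the 31 genes, 24 windows in all. Within 250 bases before the start, 19 of 24 windows held the GC box letters on either strand (79.2%), against 57.7% of the 9670 windows of all tested genes. CCAAT or its reverse ATTGG was in 8 of 24 (33.3%), against 35.8% of the windows of tested genes, and TATAAA or its reverse TTTATA in 2 of 24 (8.33%), against 6.61%. A match describes the sequence only.

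Of the genes that act on the propeptides, *Pcolce*, the enhancer of procollagen C-proteinase, had 13.29, 12.94, 13.05 and 13.51 on the leukemic arrays and 13.15, 13.15, 13.05 and 13.06 on the control arrays. The leukemic arrays spread to both sides of a narrow control range, and the difference was 0.09 ± 0.12 (-0.0081 without leukemic replicate 4). *Bmp1*, the C-proteinase itself, differed by 0.06 ± 0.10 (0.135 without leukemic replicate 4), and its 3 other detected probes gave -0.047, -0.13 and -0.18.

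Among the lysyl oxidases, *Lox* had 11.99, 11.99, 11.80 and 13.58 on the leukemic arrays and 11.77, 11.77, 12.11 and 11.87 on the control arrays. Leukemic replicate 4 was 1.68 above the mean of the other 7 arrays, and the remaining leukemic arrays lay within the control range. The difference was 0.46 ± 0.32 (limma adjusted p = 0.675) and 0.04 ± 0.11 without that array. *Loxl1*, needed for elastic fibers, had 13.57, 13.53, 13.38 and 12.75 on the leukemic arrays and 13.13, 13.24, 13.46 and 13.37 on the control arrays, so that leukemic replicate 4 was the lowest while replicates 1 and 2 were the highest. Its difference was 0.01 ± 0.17 and 0.20 ± 0.10 without leukemic replicate 4. *Loxl2*, which cross-links type IV collagen, had 9.64, 9.64, 9.80 and 10.06 on the leukemic arrays and 9.70, 9.63, 9.54 and 9.50 on the control arrays. Leukemic replicates 3 and 4 lay above all control arrays and the other two within their range, with a difference of 0.19 ± 0.12 (0.10 without leukemic replicate 4). The remaining family members differed by -0.45 ± 0.28 (*Loxl3*) and -0.22 ± 0.24 (*Loxl4*), and by -0.17 and -0.04 without leukemic replicate 4. With the authors' normalized values these were -0.0937 and -0.0428. On that array *Lox* and *Loxl2* were above, and *Loxl1*, *Loxl3* and *Loxl4* below, all other 7 arrays.

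**Figure D3:**
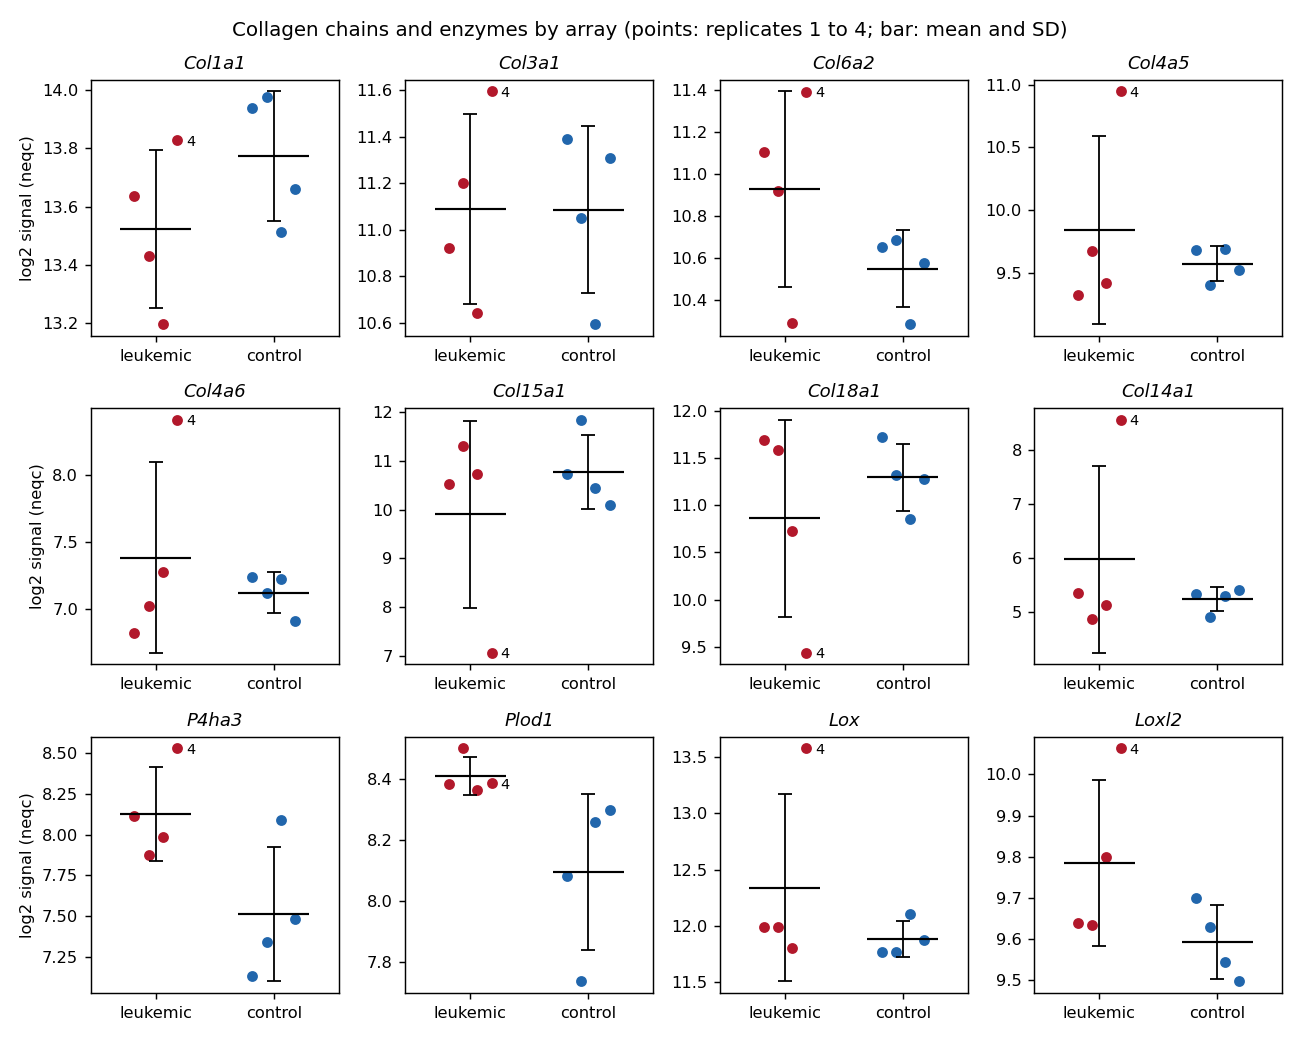
Log2 level of 12 collagen genes on each array, leukemic in red and control in blue, with the mean and SD of each group. The number 4 marks leukemic replicate 4. It is the highest array for *Lox*, *Col14a1*, *Col4a5*, *Col4a6*, *Col3a1*, *Col6a2*, *P4ha3* and *Loxl2*, and the lowest for *Col15a1* and *Col18a1*.

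Set side by side, the 17 chains had a median difference of -0.06, with 8 higher and 9 lower in leukemic cultures, and the 14 enzymes and helpers a median of 0.06, with 10 higher and 4 lower. In all, 18 of 31 collagen genes had a higher leukemic mean (58.1%), where 50.6% of all features did. Without leukemic replicate 4 the medians were -0.08 for the chains (6 of 17 higher) and 0.04 for the enzymes and helpers (8 of 14 higher), against 0.0060 for all features. The median of the chains was 0.08 without leukemic replicate 3 and also without control replicate 4. Averaged per array and set against the control mean, the chains stood at -0.03, 0.05, -0.25 and 0.11 on the leukemic arrays and 0.05, 0.10, -0.09 and -0.06 on the control arrays. The enzymes and helpers stood at 0.20, 0.05, -0.05 and 0.09 on the leukemic arrays and 0.03, -0.06, 0.03 and -0.0020 on the control arrays. For the chains the leukemic arrays reached beyond the control arrays on both sides. For the enzymes and helpers 3 of 4 leukemic arrays were above all control arrays and the third was between them. The choice of genes was made with earlier results known, so these are descriptions and carry no test. Differences over 0.5 in size were found for 3 of 31 collagen genes, *Col15a1*, *Col14a1* and *P4ha3*, where 4.56% of all features had one.

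How far leukemic replicate 4 departed from the other 7 arrays was counted gene by gene. It lay outside their range for 21 of 31 collagen genes (67.7%), where 54.4% of all features did. It was above for 13 genes (25.2% of all features) and below for 8 (29.1% of all features). It was over 1 from the mean of the other 7 arrays for 8 collagen genes (25.8%), *Col14a1*, *Lox*, *Col4a5* and *Col4a6* above and *Col15a1*, *Col18a1*, *Col7a1* and *Loxl3* below, where 7.42% of all features were. On each of the other arrays at most 1 collagen gene was that far away, *Col15a1* on leukemic replicate 2 and on control replicate 2. The median departure in size was 0.59 over the collagen genes, 0.64 over the chains and 0.34 over the enzymes and helpers, against 0.28 over all features. In the further lists described below, it lay outside the other 7 arrays for 11 of 24 tested genes of collagen folding, export and processing. The same held for 3 of 4 tested further chains and 4 of 7 tested genes of collagen receptors and uptake. Of the 13 tested fibroblast markers 10 were also outside the other 7 arrays, on both sides (*Lum*, *Thy1* and *Vim* below, *Dcn*, *Pdpn* and *Vcam1* above), with a mean level of 11.50, and the B cell markers were above, as given earlier. The part of either in these departures was not tested. Leaving the array out turned the sign of the difference for 10 collagen genes (32.3%), 8 chains and 2 enzymes or helpers, where it did for 17.9% of all features.

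**Figure D4:**
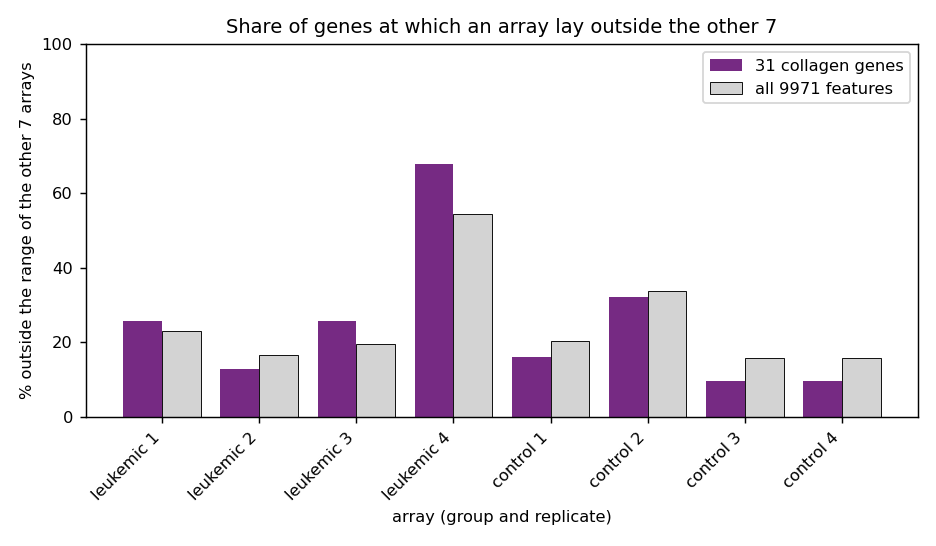
Percentage of genes at which an array lay outside the range of the other 7 arrays, for the 31 collagen genes (purple) and all 9971 features (grey). Leukemic replicate 4 reaches 67.7% for the collagen genes and 54.4% for all features, and no other array exceeds 33.7% in either set.

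Further lists gave other genes of the pathway. Of 32 further genes of collagen folding, export and processing, 24 were tested, 14 with a higher and 10 with a lower leukemic mean and a median difference of 0.02 (-0.014 without leukemic replicate 4), and 0 passed either test. The largest differences were -0.51 ± 0.26 for *Pcolce2*, a second proteinase enhancer, 0.46 ± 0.32 for *Mia3*, which helps to load procollagen for export, and -0.34 ± 0.14 for the coat protein *Sec23a*. Without leukemic replicate 4 they were -0.26, 0.52 and -0.36, so that *Pcolce2* no longer led. *P4hb*, the protein disulfide isomerase that serves as beta subunit of prolyl 4-hydroxylase, differed by -0.0011. Of 23 further chains 4 were tested and 0 passed: *Col17a1*, of hemidesmosomes, differed by -0.42 ± 0.28, the ubiquitous basement membrane chains *Col4a1* and *Col4a2* by 0.19 ± 0.12 and 0.25 ± 0.11, and *Col9a1* by -0.13 ± 0.18. Without leukemic replicate 4 these were -0.11 for *Col17a1*, 0.11 for *Col4a1*, 0.25 for *Col4a2* and -0.0332 for *Col9a1*. Of 11 genes of collagen receptors and uptake 7 were tested, 6 with a higher and 1 with a lower leukemic mean, and 0 passed, with a median of 0.21 (0.06 without leukemic replicate 4). The integrin chains *Itga1* and *Itga11*, which pair with beta 1 to bind collagen, differed by 0.50 ± 0.38 and 0.48 ± 0.19, and by 0.11 and 0.52 without leukemic replicate 4. The discoidin domain receptors *Ddr1* and *Ddr2*, kinases that collagen activates, differed by 0.22 and 0.21, and by 0.0020 and 0.17 without leukemic replicate 4.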

How the data were processed

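The signal file that the authors deposited holds, for 25697 probes and each of 8 arrays, an intensity on a linear scale, not normalized between arrays, and a detection p-value against negative control beads. The names of all 8 arrays share 1 number and differ in a letter from A to H. Whether this number stands for 1 chip is not stated. The authors also deposited values on a log2-like scale, normalized with lumi with settings that are not given in the sources used here, which served as an alternative. In deviations from the probe means, each of its columns correlated across probes with its own array at r of at least 0.711, and with any other at no more than 0.313.

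The signals were background-corrected and quantile normalized with neqc of limma 3.58.1 in R 4.3.3 (offset 16, log2). Probes detected (p below 0.05) on at least 4 of 8 arrays were kept, 13732 in all, and per symbol the one with the highest mean, giving 9971 features. Of the 31 collagen genes, 6 had over 1 kept probe, and the probes of *Col3a1*, *Bmp1* and *Col7a1* disagreed in sign. Leukemic and control arrays were compared with an own implementation of the unpaired rank product (16 array pairs, 100 permutations, q below 0.05), which ignores the spread of the single gene, and with limma (trend, 2-sided, Benjamini-Hochberg over all features), which uses it and gives differences, SE and 95% intervals. Both were run on simulated data with independent noise and no array standing apart, which cannot show how they behave with an array such as leukemic replicate 4. The number of arrays limits the precision.

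Per-array values are given for the brightest gene and the gene with the largest difference of each role, genes whose groups do not overlap, and genes the study names. The text of the study names *Col1a1*, *Col3a1*, *Col4a6* and *Loxl2* for stroma treated with BMS493, an inhibitor of retinoic acid signaling, not for the comparison made here. Any other gene given per array is said to be chosen after its values were seen. The genes and lists were chosen with earlier results of these data known. Promoter windows come from RefSeq (GRCm38.p6) by symbol. Alternatives changed the background correction, normalization, filter, choice of probe, array weights, replicate block and arrays used.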

Additional observations from a re-analysis of the deposited data

Results flagged for a closer look

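Of 62 groups of 4 arrays (31 genes in each culture), 6 held 1 array far from the other 3 by Dixon's criterion, which chance alone meets in about 1 in 20 groups. Of these 6, 2 concern leukemic replicate 4. *Lox* was at 13.58 there, with the next leukemic array at 11.99, and *Col14a1* was at 8.56, with the next at 5.35. The other 4 were narrower. Leukemic replicate 2 was the highest of its group for *Col16a1*, at 12.19 with the next array at 11.94, and for *Plod1*, at 8.50 with the next at 8.39. Control replicate 3 was the highest of its group for *Col7a1*, at 9.64 with the next at 9.12. Control replicate 2 was the lowest of its group for *Loxl4*, at 6.33 with the next at 6.74.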

How the results depend on the processing

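No collagen gene passed limma under any alternative (lowest adjusted p 0.415). In the rank product 1 collagen gene, *Col15a1*, passed as lower when the authors' values, no filter and every probe were combined, and none did under the other alternatives. That combination and a run with 1000 permutations were chosen after seeing the data. Over all features the rank product called 28 as higher and 2 as lower. It called 10 and 5 with the authors' normalized values, 54 and 6 with no detection filter, 50 and 0 with every kept probe, and 71 and 93 with the 3 choices combined. The count of lower features was 1 with no background correction and 1 with probes detected on all 8 arrays. The deviations of same-numbered arrays from their group means correlated at 0.031 to 0.301. Of the 4 leukemic arrays 3 correlated best with their own number, a hint of pairing. The correlation was over 0.1 in 3 of 4 pairs and not in all. The exception, at 0.031, was the pair of replicate 4, which holds the leukemic array that stood apart. Same-numbered arrays also carry neighbouring letters in their names. The labels do not say what a number stands for, and the numbers were not taken as pairs. With the replicate number as a block the rank product called 41 as higher and 18 as lower, with no collagen gene among them.

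Leaving out each array in turn gave 6 (without leukemic replicate 4) to 41 (without control replicate 3) features as higher and 0 to 15 (without leukemic replicate 2) as lower, with 0 collagen genes each time. The count of higher features was 17 where leukemic replicate 1 was left out, 18 for control replicate 1, 14 for control replicate 2 and 17 for control replicate 4, and that of lower features was 4 for leukemic replicate 3. The median difference lay between -0.10 and 0.08 for the chains and between 0.04 and 0.08 for the enzymes and helpers. Of 248 differences with 1 array left out, 222 kept their sign and 26 turned, in 16 genes, 10 of them without leukemic replicate 4 and 5 without control replicate 2. The ranges of these 16 were -1.33 to 0.0806 for *Col15a1*, -0.71 to 0.0416 for *Col18a1*, -0.12 to 1.11 for *Col14a1*, -0.38 to 0.19 for *Col7a1*, -0.0814 to 0.44 for *Col4a6*, -0.10 to 0.44 for *Col4a5*, -0.0011 to 0.25 for *Col6a1*, -0.17 to 0.15 for *Col3a1*, -0.0254 to 0.15 for *Col5a1*, -0.26 to 0.0795 for *Col5a2*, -0.32 to 0.0306 for *Col11a1*, -0.0261 to 0.12 for *P4ha2*, -0.23 to 0.0288 for *Plod2*, -0.0107 to 0.13 for *Serpinh1*, -0.0081 to 0.18 for *Pcolce* and -0.0741 to 0.20 for *Loxl1*.

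Of 276 differences under the other alternatives 267 kept their sign. Those that turned were *Col3a1* (-0.0042) and *Bmp1* (-0.0748) with every kept probe, *Bmp1* (-0.0471) with the 3 choices combined, and, with array weights, *Col3a1* (-0.14), *Col5a1* (-0.0152), *Col4a5* (-0.0218), *Col7a1* (0.15), *P4ha2* (-0.0364) and *Pcolce* (-0.0039). The causes were not tested. Median scaling moved the median of all features to 0.0537, that of the chains to -0.0199 and that of the enzymes and helpers to 0.13. The authors' values moved differences by over 1.5 times for *Col15a1* (-0.56), *Col4a6* (0.12), *Col7a1* (-0.08), *Col11a1* (-0.0253), *Col27a1* (0.0288) and *Col5a2* (-0.0086), beside the *P4ha3*, *Plod1*, *Col5a3*, *Col14a1*, *Loxl3* and *Loxl4* values given with those genes. *Col27a1*, *Col11a1* and *Col14a1* have no value where detection on all 8 arrays was required. Levels lay near background for *Col14a1* and *Col27a1* on most arrays, and for *Col5a3* on leukemic replicate 4. *Col11a1* had 5.06 on leukemic replicate 3, which did not detect it, and 5.09 on control replicate 4. The size of such differences depended on the processing. With no background correction they were 0.57 for *Col14a1*, 0.13 for *Col27a1*, -0.10 for *Col11a1* and -0.23 for *Col5a3*, smaller in size than with it. No offset other than 16 was tried.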
